A study of Mus musculus with 6 samples.

Results

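The mRNAs of 10 DNA-binding factors of the heart program were followed in CM nuclei of mice given GFP, YAP6SA or YAP5SA, and *Hand2* was the only one called in any comparison of the groups. The members were the rows of the count table whose Ensembl identifier carries the symbol *Gata4*, *Gata6*, *Nkx2-5*, *Tbx5*, *Tbx20*, *Hand1*, *Hand2*, *Mef2a*, *Mef2c* or *Meis1* in the GENCODE M21 annotation, which are 10 of 54532 genes. They were chosen by name and function, with earlier results of these data known. Wild-type ICR mice received 1e+11 viral genomes of AAV9 under the skin at 6 d of age, and hearts were taken at 9 d of age. The virus carried GFP, YAP6SA or YAP5SA behind the cTnT promoter, which is active in CMs, so that the GFP controls share the virus, the promoter and the injection. In YAP5SA the serines that the LATS kinases phosphorylate are changed to alanine, and YAP6SA has a further serine-to-alanine change at a residue used for binding TEAD factors. Poly-A RNA was sequenced from nuclei bound by an antibody to PCM-1, a centriolar satellite protein found around CM nuclei. Every virus is represented by 2 libraries, 1 in each of 2 batches, and since it is not stated whether a library is a single heart, p-values measure only the spread between these libraries.

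GATA4, GATA6, NKX2-5, TBX5, the HAND proteins and the MEF2 proteins bind DNA near each other at heart enhancers and build up the CM program together, and TBX20 joins them as an activator or a repressor. MEIS1 binds DNA with PBX proteins and is known in the postnatal heart as a brake on the CM cell cycle. YAP has no DNA-binding domain and acts through factors that have one, of which the TEAD proteins are the best known. GATA4, GATA6, HAND2, TBX20 and MEIS1 are also made by cells of the heart other than CMs.

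The libraries held 14552847 to 19615627 reads on genes, of which the 10 members together took 22080 to 30285. Values are given as CPM, the counts scaled by the size of each library with edgeR's TMM factors, for batch 1 and then batch 2 or as the mean ± SD of the 2 libraries, and the FDR is the p of edgeR's quasi-likelihood test after Benjamini-Hochberg adjustment over the 13323 genes that passed the filter on low counts. A gene was called when its FDR was under 0.05. The CM markers *Ttn*, *Actn2*, *Tnnt2*, *Ryr2*, *Myh6* and *Pcm1* summed to 42396 and 57388 CPM in the GFP controls, 39576 and 51743 CPM with YAP6SA, and 35090 and 25075 CPM with YAP5SA, below all others. *Yap1* itself was at 139 and 129 CPM with GFP, 122 and 130 with YAP6SA and 138 and 102 with YAP5SA, and it was called in no comparison, so the delivered YAP is not seen in these counts. In this bulk RNA, fewer nuclei of a type and less RNA per nucleus cannot be told apart.

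Of the 10 members, 9 passed the filter. *Hand1*, the bHLH factor of the early left ventricle (ENSMUSG00000037335, chromosome 11, 57828705 to 57832818, GRCm38), had 0 counts in all 6 libraries, which allows up to 3 counts or 0.152 to 0.198 CPM per library by counting error alone. Per kb of annotated exon, the members that were tested fell into a high and a low set with GFP. *Mef2a* led with 53.2 ± 6.89 CPM per kb, followed by *Nkx2-5* with 44.1 ± 3.63, *Gata4* with 42.9 ± 3.31, *Gata6* with 36.8 ± 2.30 and *Hand2* with 31.7 ± 4.11. *Tbx5* followed with 10.4 ± 1.62 CPM per kb, *Meis1* with 8.4 ± 2.39, *Tbx20* with 3.60 ± 0.0838 and *Mef2c* with 1.56 ± 0.238. In this order *Nkx2-5* and *Gata4* overlapped between their libraries, as did *Tbx5* and *Meis1*, and the other neighbours did not overlap. With the longest transcript in place of all exons, *Mef2a* was at 141 CPM per kb and *Gata6*, with 63.4, passed *Nkx2-5* and *Gata4*, with 49.7 and 49.3. In both other groups *Hand2* was the highest of the members per kb of exon, with 54.0 ± 7.37 CPM per kb with YAP6SA and 49.3 ± 1.08 with YAP5SA, by the mean of its libraries. With YAP6SA its libraries, at 48.8 and 59.3 CPM per kb, overlapped those of *Gata4*, at 43.2 and 50.5, and with YAP5SA they overlapped no other member. Per kb of the longest transcript *Hand2* came in both groups behind a pair of members, which were *Mef2a* (126 CPM per kb) and *Gata6* (60.6) with YAP6SA and *Mef2a* (108) and *Gata4* (50.4) with YAP5SA, so its place at the top holds for the length of all exons only.

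**Figure D1:**
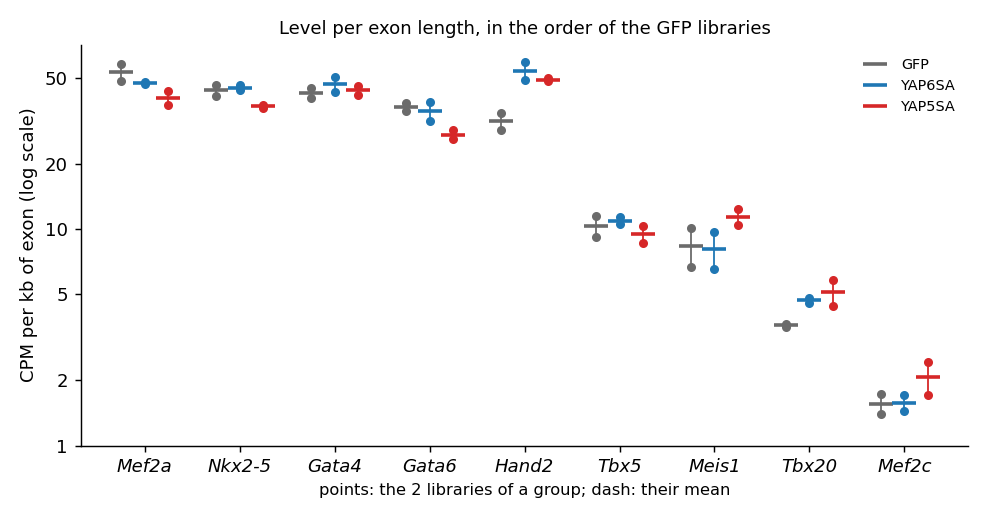
Level of the 9 members with counts, in CPM per kb of exon on a log axis, with 1 point for each library, a line joining the 2 libraries of a group and a dash at their mean. The *Hand2* libraries of YAP6SA and YAP5SA sit above its GFP libraries, and their means are the highest of their groups, with 1 YAP6SA library below the higher *Gata4* library, whereas *Tbx20* and *Mef2c* are at the bottom in all groups.

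Against GFP, 0 of the 9 members tested were called in YAP6SA OE CMs. Of all genes tested, 0.045% were called higher and 0.0% lower in that comparison. At an unadjusted p under 0.05, 2 members, *Hand2* and *Tbx20*, were higher, beside 514 of the 13323 genes. With YAP5SA, 1 member, *Hand2*, was higher and 0 were lower, beside 12.8% of all genes called higher and 9.18% called lower. A share of 1 in 9 is near that of all genes. *Tbx20* and *Meis1* were next, above GFP, and *Gata6* had an unadjusted p under 0.05 in the lower direction. Between the variants, 0 members were called, beside 9.0% of all genes higher and 5.68% lower in YAP5SA OE CMs, and only *Meis1* had an unadjusted p under 0.05. The median log2 fold change of the members was 0.038 with YAP6SA, 0.03 with YAP5SA and -0.12 between the variants, beside 0.0018, -0.0031 and -0.013 over all genes. Both comparisons against GFP use the same 2 GFP libraries. For calls in fits with a library left out, the share of all genes called in the same fit was not counted. Where the libraries of groups are described below as lying apart, the share of all genes with such an order was not counted. With 2 libraries in a group such an order can arise without a change, so it is a description only.

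**Figure D2:**
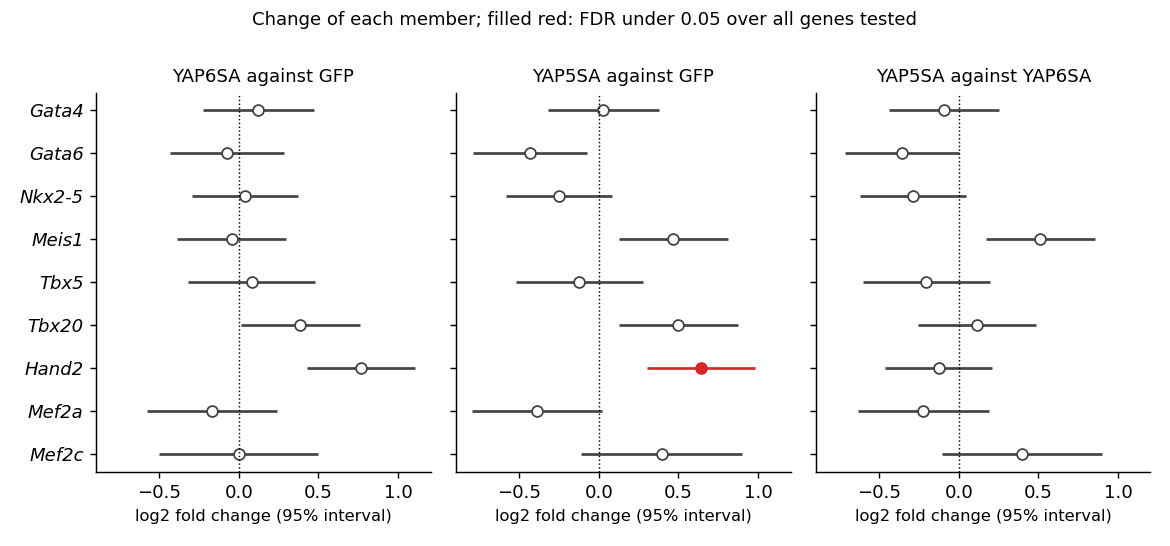
Log2 fold change of each member with its 95% interval in the 3 comparisons, from 1 model of all 6 libraries with a batch term. The filled red point is *Hand2* in YAP5SA against GFP, the only call, and its interval in YAP6SA against GFP also lies above 0.

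*Hand2* (ENSMUSG00000038193, chromosome 8 of GRCm38, 57320983 to 57324633, plus strand) encodes a bHLH factor needed for the right ventricle and outflow tract. Its level was 67.7 and 81.4 CPM with GFP, 115 and 139 CPM with YAP6SA, and 118 and 114 CPM with YAP5SA. All 4 libraries with a YAP variant were above both GFP libraries. Against GFP, *Hand2* rose 1.56-fold in YAP5SA OE CMs, with a log2 fold change of 0.64 (standard error 0.15, 95% interval 0.31 to 0.98, FDR 0.0154). Within batch 1 the log2 difference was 0.80, and within batch 2 it was 0.49. With YAP6SA the change against GFP was larger, at 0.77 on the log2 scale (standard error 0.15, 95% interval 0.43 to 1.11), with 0.76 in batch 1 and 0.77 in batch 2, but its FDR was 0.225 at an unadjusted p of 0.0005. In that comparison 6 of the 13323 genes were called. The direct comparison of the variants gave -0.12 (95% interval -0.46 to 0.21, FDR 0.622), so no difference in *Hand2* between the variants was detectable within that interval. Of 8 markers of fibroblasts, which also make HAND2, 0 were called, but 8 were above GFP with YAP6SA (median log2 fold change 0.32, 3 at an unadjusted p under 0.05) and 5 with YAP5SA (median 0.16), and their part in the rise of *Hand2* was not tested.

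The call in YAP5SA OE CMs was made by all 7 alternative fits that kept the 6 libraries or the 4 compared, with FDR from 0.0032 to 0.0354. It was lost without GFP 1 (log2 fold change 0.58, FDR 0.138) and without GFP 2 (0.72, FDR 0.105), and made when any other library was left out. For YAP6SA, *Hand2* passed the threshold when no filter was set (FDR 0.0047, beside 0.398% of all genes called higher), with DESeq2 (0.0364, beside 0.319%), in a fit of only the 4 libraries compared (0.00058, beside 1.49%), and without YAP5SA 1 or YAP5SA 2 (0.0019 and 0.0018). Over all alternatives its log2 fold change ran from 0.68 to 0.85 with YAP6SA and from 0.49 to 0.81 in YAP5SA OE CMs, and its FDR in YAP6SA ran from 0.00058 to 1.0.

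**Figure D3:**
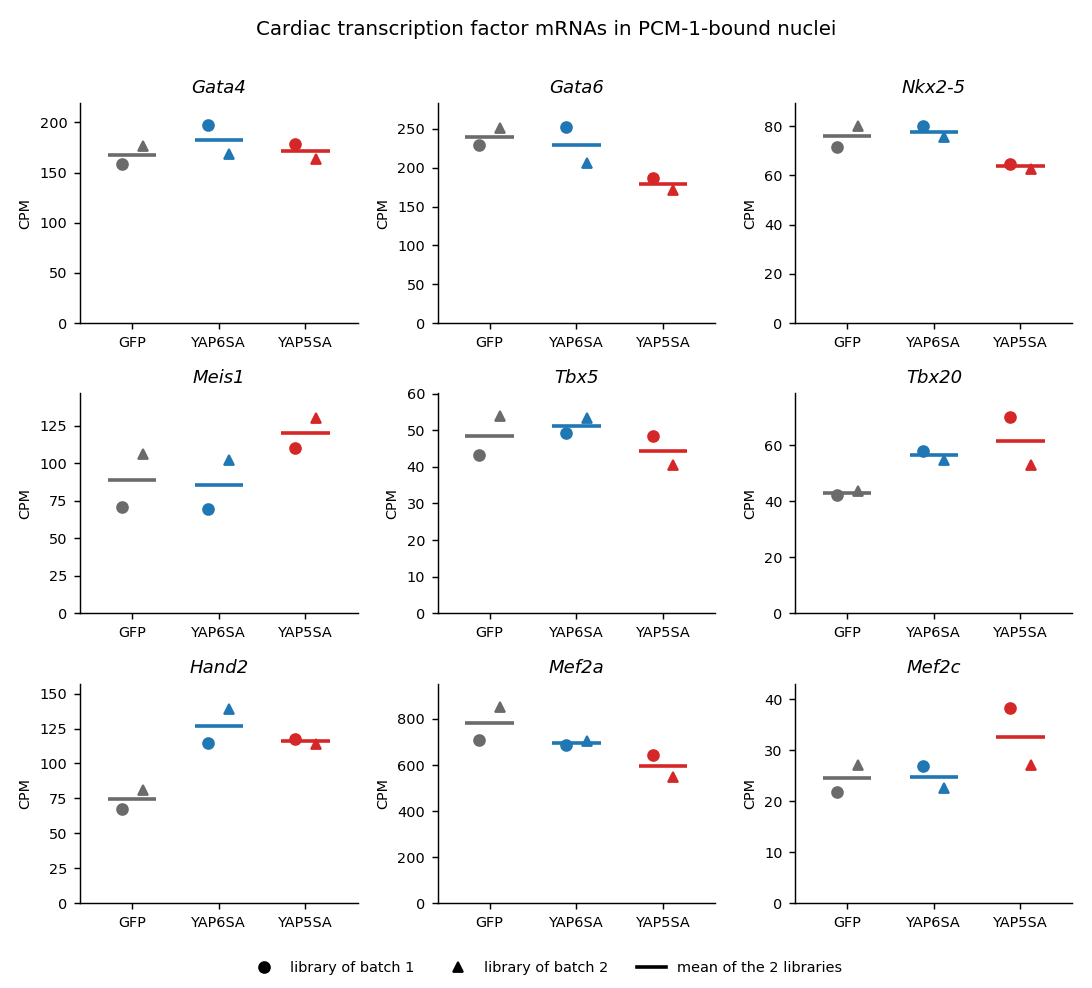
CPM of the 9 members with counts in each library, with circles for batch 1, triangles for batch 2 and a line at the mean of the 2 libraries of a group. For *Hand2*, the 4 YAP libraries, at 114 to 139 CPM, lie above the GFP libraries, at 67.7 and 81.4 CPM, and for *Meis1* the YAP5SA libraries, at 110 and 130 CPM, lie above the others.

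The 250 bases before the *Hand2* start were searched on both strands for short core motifs of the factors named here. The letters were GGAATG for the TEAD partners of YAP and AGATAA for the zinc finger proteins GATA4 and GATA6. They were TATTTTTA for the MEF2 proteins, AGGTGT for the T-box proteins, TGACAG for MEIS1 and AAGTGG for the homeobox protein NKX2-5. None of the motifs overlaps another in the windows shown, and capitals mark a match. The stretches are from RefSeq on GRCm38.p6, read 5′ to 3′ on the strand of the gene, and 6 of the 10 members had an entry, with 8 starts in all. *Hand2* is shown as the called member, *Tbx20* as the member with the next largest rise against GFP in both variants, and *Mef2c*, whose farthest upstream start had the only TEAD core of the 8 windows, as a member that was called in no comparison.
Hand2, chr8:57320733-57320982, plus strand: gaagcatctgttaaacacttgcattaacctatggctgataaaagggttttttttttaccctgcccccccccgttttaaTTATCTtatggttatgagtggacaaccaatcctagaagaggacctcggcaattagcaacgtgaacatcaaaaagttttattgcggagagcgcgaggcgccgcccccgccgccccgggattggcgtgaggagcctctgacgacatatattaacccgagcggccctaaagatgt
Tbx20, chr9:24774304-24774553, minus strand: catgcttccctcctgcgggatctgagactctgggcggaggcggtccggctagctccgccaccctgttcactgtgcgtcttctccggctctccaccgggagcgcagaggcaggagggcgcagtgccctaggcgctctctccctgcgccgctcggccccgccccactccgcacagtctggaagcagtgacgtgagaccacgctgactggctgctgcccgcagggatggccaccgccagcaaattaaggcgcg
Mef2c, chr13:83503784-83504033, plus strand: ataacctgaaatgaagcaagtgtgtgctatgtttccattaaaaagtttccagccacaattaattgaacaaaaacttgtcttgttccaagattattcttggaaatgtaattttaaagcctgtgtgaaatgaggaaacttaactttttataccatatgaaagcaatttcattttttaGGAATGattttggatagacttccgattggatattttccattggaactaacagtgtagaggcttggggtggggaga
The *Hand2* window held a GATA core on the reverse strand, 172 bases before the start, and the *Mef2c* window held a TEAD core 75 bases before the start. The *Tbx20* window held none of the 6 cores. Of 32851 such windows in the table, 12.6% hold the TEAD core, 9.99% the GATA core, 2.45% the MEF2 core, 11.8% the T-box core, 15.9% the MEIS core and 14.1% the NKX2-5 core, so a single match is common. A match names letters and not a bound site.

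*Hand2os1* (ENSMUSG00000100510, chromosome 8, 57281117 to 57324233, minus strand), a long noncoding RNA gene read across *Hand2* from the other strand, was counted more often than *Hand2* in every library. Its counts were 4977 and 4194 with GFP, 8974 and 5713 with YAP6SA, and 3998 and 2872 with YAP5SA. Its mean level was 266.8 CPM with GFP, 400.0 CPM with YAP6SA and 212.2 CPM with YAP5SA. Between the variants *Hand2os1* was lower with YAP5SA, at a log2 fold change of -0.93 (standard error 0.20, FDR 0.0131), whereas *Hand2* was at -0.12 in the same comparison. Against GFP it had a log2 fold change of 0.56 in YAP6SA (FDR 0.706) and -0.38 in YAP5SA (FDR 0.198), and was not called. Counted per library, there were 3.85 and 3.35 *Hand2os1* reads for each *Hand2* read in GFP, 3.96 and 2.48 in YAP6SA, and 2.24 and 1.41 in YAP5SA. Both YAP5SA libraries had the lowest values, while those of YAP6SA reached on either side of GFP. The call was lost without YAP6SA 1 (FDR 0.0799), without YAP6SA 2 (0.0999) and without the replicate block (0.0545). The libraries were not directional and 461 exon bases are common to both genes, so reads there cannot be told apart by strand.

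By rule, the genes whose log2 CPM followed *Hand2* most closely over the 6 libraries were *Fam3a*, with a Pearson r of 0.984, and *Cxcl16*, a membrane-bound chemokine gene, with 0.982. *Cxcl16* went from 4.19 and 4.82 CPM in GFP to 6.74 and 8.22 in YAP6SA and 7.92 and 6.93 in YAP5SA, and neither gene was called in any comparison. These are the highest of 13323 genes over only 6 libraries, which share the batches and the groups.

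*Tbx20* (ENSMUSG00000031965, chromosome 9, 24718138 to 24774303, minus strand) was at 42.4 and 43.9 CPM with GFP, 58.0 and 54.9 CPM with YAP6SA, and 70.0 and 52.8 CPM with YAP5SA. As with *Hand2*, each library with a YAP variant was above both GFP libraries. The log2 fold change was 0.50 in YAP5SA OE CMs (standard error 0.17, 95% interval 0.13 to 0.87, FDR 0.0584), with 0.72 in batch 1 and 0.27 in batch 2, and 0.38 in YAP6SA OE CMs (0.17, 0.01 to 0.76, FDR 0.837), with 0.45 and 0.32. Neither passed the threshold. With a filter of at least 10 counts in every library the FDR in YAP5SA was 0.0496, beside 12.1% of all genes called higher under that filter, and without YAP5SA 2 it was 0.0113 at a log2 fold change of 0.70. *Gm29824*, a lincRNA gene that starts 2164 bases from *Tbx20* on the other strand, had 9 and 10 counts in GFP, 23 and 13 in YAP6SA, and 38 and 37 in YAP5SA. It was higher in YAP5SA than in GFP by 2.02 on the log2 scale (standard error 0.57, FDR 0.0322). The call for *Gm29824* was lost without either GFP library or either YAP5SA library, with FDR of up to 0.23, and with DESeq2. Its counts are low, and it passed the filter on low counts only through YAP5SA, the group where it is high. It shares no exon bases with *Tbx20*.

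*Tbx5* (ENSMUSG00000018263, chromosome 5, 119832668 to 119885219, plus strand), whose protein works with NKX2-5 and GATA4, was at 43.2 and 53.9 CPM in GFP, 49.3 and 53.3 in YAP6SA, and 48.4 and 40.5 in YAP5SA. The groups overlapped. The log2 fold change was 0.08 in YAP6SA (95% interval -0.32 to 0.48, FDR 0.961) and -0.12 in YAP5SA OE CMs (-0.52 to 0.28, FDR 0.662). *Gm43050*, a lincRNA gene that starts 748 bases from *Tbx5* on the other strand, had 137 to 151 counts in GFP, 127 and 134 in YAP6SA, and 86 in each YAP5SA library, and was not called (log2 fold change in YAP5SA -0.68, standard error 0.32, FDR 0.154).

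*Meis1* (ENSMUSG00000020160, chromosome 11, 18879817 to 19018985, minus strand) was at 70.7 and 106 CPM with GFP, 69.1 and 102 CPM with YAP6SA, and 110 and 130 CPM with YAP5SA. The library of batch 2 was the higher in every group, and both YAP5SA libraries were above all others. With YAP5SA its log2 fold change was 0.47 against GFP (standard error 0.15, 95% interval 0.13 to 0.81, FDR 0.0534) and 0.51 against YAP6SA (0.15, 0.17 to 0.85, FDR 0.0506), each just short of the threshold. In YAP6SA OE CMs it was -0.04 against GFP (95% interval -0.38 to 0.30, FDR 0.976). Within batches 1 and 2 the difference between YAP5SA and GFP was 0.64 and 0.29, and between YAP5SA and YAP6SA it was 0.67 and 0.34. *Meis1* was called against GFP with at least 10 counts in every library (FDR 0.0432), and against YAP6SA with the same filter (0.0403, beside 8.75% of all genes called higher), with no filter (0.0377, beside 5.81%) and with limma-voom (0.049, beside 8.86%). Without YAP5SA 2 it was called in both, with log2 fold changes of 0.65 (FDR 0.0109) and 0.69 (FDR 0.0093). Without the replicate block the FDR was 0.244 and 0.237. The antisense gene *Gm16141* within *Meis1* had 24 to 39 counts in a library, and *Gm16140*, *Gm37818*, *2900018N21Rik* and *2610001A08Rik*, also within it, had 0 to 4.

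*Cdkn1a*, *Cdkn2a* and *Cdkn2b* are cell cycle inhibitor genes reported as MEIS1 targets. *Cdkn1a* had 16.9 and 23.2 CPM in GFP, 25.4 and 26.3 CPM in YAP6SA, and 39.7 and 43.6 CPM in YAP5SA, so that the groups did not overlap. It rose by 1.07 on the log2 scale in YAP5SA OE CMs against GFP (standard error 0.19, FDR 0.0051) and by 0.68 against YAP6SA (0.19, FDR 0.0392). Against GFP the call was made whichever library was left out, and against YAP6SA it was lost without YAP6SA 1 (FDR 0.122), without YAP6SA 2 (0.428) and without the block (0.0722). *Cdkn2a* and *Cdkn2b* had 0 to 9 counts in a library and were not tested.

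*Gata6* (ENSMUSG00000005836, chromosome 18, 11052064 to 11085635, plus strand) was at 229 and 250 CPM with GFP, 253 and 206 CPM with YAP6SA, and 186 and 171 CPM with YAP5SA. Both YAP5SA libraries were below the other 4. The log2 fold change in YAP5SA OE CMs was -0.43 against GFP (standard error 0.16, 95% interval -0.79 to -0.07, FDR 0.0828) and -0.36 against YAP6SA (0.16, -0.72 to 0.0014, FDR 0.164), and in YAP6SA against GFP it was -0.07 (FDR 0.962). Within batches 1 and 2 the difference between YAP5SA and GFP was -0.30 and -0.55. The long noncoding gene *1010001N08Rik*, which starts 503 bases from *Gata6* on the other strand and shares 93 exon bases with it, had 494 and 416 counts in GFP, 505 and 382 in YAP6SA, and 269 and 264 in YAP5SA. It was lower in YAP5SA than in GFP by -0.71 (standard error 0.20, FDR 0.0331), and that call was lost in 5 of the 6 fits with a library left out, all but the fit without YAP5SA 1, with FDR of up to 0.334 without GFP 2, and in the 4 libraries compared (0.0621).

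*Gata4* (ENSMUSG00000021944, chromosome 14, 63198922 to 63271692, minus strand), the zinc finger factor closest to *Gata6* in the heart, was at 158 and 177 CPM in GFP, 197 and 168 in YAP6SA, and 179 and 164 in YAP5SA. The groups overlapped, and the log2 fold change was 0.12 in YAP6SA (95% interval -0.23 to 0.47, FDR 0.941) and 0.03 in YAP5SA OE CMs (-0.32 to 0.38, FDR 0.917). *Nkx2-5* (ENSMUSG00000015579, chromosome 17, 26838664 to 26845009, minus strand), the homeobox factor of the early heart, was at 71.4 and 80.2 CPM in GFP, 79.9 and 75.7 in YAP6SA, and 64.8 and 62.5 in YAP5SA. Both YAP5SA libraries were below the other 4, with a log2 fold change of -0.25 against GFP (standard error 0.15, 95% interval -0.58 to 0.08, FDR 0.256) and -0.29 against YAP6SA (0.15, -0.62 to 0.04, FDR 0.219). In YAP6SA OE CMs *Nkx2-5* had a log2 fold change of 0.04 (95% interval -0.29 to 0.37).

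*Mef2a* (ENSMUSG00000030557, chromosome 7, 67231163 to 67372858, minus strand), the main MEF2 gene of the postnatal heart, was at 709 and 852 CPM in GFP, 688 and 703 in YAP6SA, and 643 and 549 in YAP5SA. Its libraries fell in the order GFP, YAP6SA, YAP5SA with no overlap, but the log2 fold change in YAP5SA OE CMs was -0.39 (standard error 0.18, 95% interval -0.80 to 0.02, FDR 0.159) and in YAP6SA OE CMs -0.17 (0.18, FDR 0.929). Without YAP5SA 1, *Mef2a* was called lower in YAP5SA than in GFP, at -0.57 (FDR 0.0128). *Lysmd4*, a protein-coding gene on the other strand that shares 302 exon bases with *Mef2a*, had 832 to 1365 counts in GFP, 888 and 962 in YAP6SA, and 613 and 887 in YAP5SA, and *Gm44667* and *Gm44668* within *Mef2a* had 0 to 27. *Mef2c* (ENSMUSG00000005583, chromosome 13, 83504034 to 83667080, plus strand), a MEF2 gene needed for the looping heart, was at 21.9 and 27.2 CPM in GFP, 26.9 and 22.6 in YAP6SA, and 38.4 and 27.0 in YAP5SA. The difference between YAP5SA and GFP lay in batch 1, with 0.81 on the log2 scale and -0.00885 in batch 2, and the fitted value was 0.39 (standard error 0.23, 95% interval -0.11 to 0.90, FDR 0.242).

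Counts of related members were also set against each other within each library, where no scaling between libraries enters. There were 1.45 and 1.42 *Gata6* reads for each *Gata4* read with GFP, 1.28 and 1.22 with YAP6SA, and 1.04 in both YAP5SA libraries. The groups did not overlap. *Tbx20* had 0.982 and 0.813 reads for each *Tbx5* read in GFP, 1.18 and 1.03 in YAP6SA, and 1.45 and 1.30 in YAP5SA. The YAP5SA libraries were the highest and the GFP libraries the lowest, with no overlap. *Mef2a* had 32.4 and 31.3 reads for each *Mef2c* read in GFP, 25.6 and 31.1 in YAP6SA, and 16.8 and 20.3 in YAP5SA. With 2 libraries in a group these ratios were not tested, and the share of gene pairs with such an order was not counted.

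**Figure D4:**
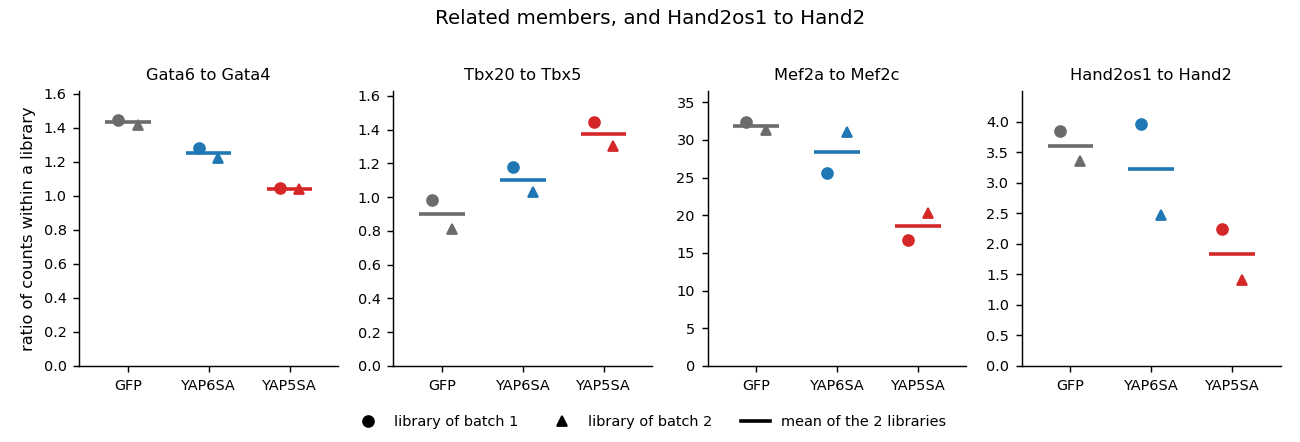
Ratio of the counts of *Gata6* to *Gata4*, *Tbx20* to *Tbx5*, *Mef2a* to *Mef2c* and *Hand2os1* to *Hand2* in each library, on linear axes from 0, with circles for batch 1, triangles for batch 2 and a line at the mean of a group. The GATA ratio is 1.42 to 1.45 in GFP and 1.04 in YAP5SA, the T-box ratio is 0.813 to 0.982 in GFP and 1.30 to 1.45 in YAP5SA, and each YAP5SA pair lies apart from the GFP pair in the same panel.

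Over the 6 libraries, the log2 CPM of *Gata6* followed those of *Nkx2-5* (Pearson r 0.92) and *Mef2a* (0.83), and that of *Hand2* followed that of *Tbx20* (0.78). Similar values were found for *Nkx2-5* and *Mef2a* (0.83), *Mef2a* and *Tbx5* (0.75), *Nkx2-5* and *Tbx5* (0.74), and *Mef2c* and *Tbx20* (0.74). *Gata6* and *Meis1* ran against each other (-0.73). These values describe 6 libraries that share groups and batches.

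Of 17 genes of the same families and of the PBX partners of MEIS1, 12 were tested. In YAP6SA OE CMs 0 were called, with 0 at an unadjusted p under 0.05. With YAP5SA 2 were higher and 2 lower than in GFP, beside 12.8% and 9.18% of all genes. Their median log2 fold change was -0.0016, beside -0.0031 over all genes. *Pbx4* went from 1.26 and 1.37 CPM in GFP to 5.41 and 9.44 CPM in YAP5SA, with a log2 fold change of 2.45 (standard error 0.44, FDR 0.0051). Its mean with YAP6SA was 1.11 CPM. *Pbx4* thus passed the filter on low counts only through YAP5SA, the group where it is high, so its calls are not independent of the filter. *Tbx18*, a T-box gene of the epicardium and sinus node, was at 41.8 and 40.8 CPM in GFP and at 64.3 and 148 CPM in YAP5SA (1.30, 0.29, FDR 0.0125). The epicardial marker *Wt1* went from 13.7 and 13.5 CPM to 92.5 and 154 CPM in the same libraries, and its bearing on *Tbx18* was not tested. *Mef2b* fell from 4.03 and 2.86 CPM to 0.594 and 1.51 CPM (-1.76, 0.55, FDR 0.046). Its values are low, and it passed the filter only through GFP and YAP6SA, the groups where it is high. The *Mef2b* call is thus not independent of the filter either. Against YAP6SA, *Pbx4* and *Tbx18* were higher by 2.70 and 1.5, with FDR of 0.0045 and 0.0095. The calls against GFP were lost without GFP 2 for *Pbx4* (FDR 0.0677) and *Tbx18* (0.127), and for *Mef2b* in 5 of the 6 fits with a library left out, all but the fit without YAP5SA 2, with FDR of up to 0.309 without GFP 1. The *Mef2b* call was also lost without the block (0.0628), in the 4 libraries compared and with limma-voom. The calls against YAP6SA were lost without YAP6SA 2, with FDR of 0.0744 for *Pbx4* and 0.111 for *Tbx18*.

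Of 15 other transcription factors of heart chambers and conduction, 13 were tested. In YAP6SA OE CMs 0 were called, and 1 had an unadjusted p under 0.05. With YAP5SA, 1 was higher and 3 were lower than in GFP, beside 12.8% and 9.18% of all genes. Their median log2 fold change was -0.40, beside -0.0031 over all genes. *Irx4*, a factor of ventricular identity, fell from 353 and 390 CPM in GFP to 194 and 128 CPM in YAP5SA (log2 fold change -1.20, standard error 0.23, FDR 0.0065), and was at 285 and 392 CPM in YAP6SA. *Prox1*, which CMs need for sarcomere structure, fell from 76.96 and 63.6 CPM to 43.6 and 31.1 CPM (-0.92, 0.18, FDR 0.0063). Both calls were made whichever library was left out. *Irx3*, a conduction system factor, was lower in YAP5SA (-0.60, 0.18, FDR 0.0388), with -0.66 in YAP6SA (FDR 0.497). Its call was lost in 5 of the 6 fits with a library left out, all but the fit without YAP5SA 2, and also without the block (0.383) and in the 4 libraries compared. Against YAP6SA, *Irx4* was lower by -1.07 and *Prox1* by -0.73 in YAP5SA OE CMs, with FDR of 0.0147 and 0.0229, and both calls were lost without YAP6SA 2 (0.233 and 0.374), that of *Prox1* also without YAP5SA 2 and without the block (0.0594).

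All 18 partner genes were tested, among them cofactors, deacetylases and the E proteins that pair with HAND2. In YAP6SA OE CMs 1 was higher than in GFP and 0 were lower, beside 0.045% and 0.0% of all genes. With YAP5SA 2 were higher and 0 lower than in GFP, beside 12.8% and 9.18%, with a median log2 fold change of -0.11. Between the variants 1 was higher and 1 lower in YAP5SA, beside 9.0% and 5.68%. *Srf*, which encodes a MADS-box factor that works with GATA4 and NKX2-5 at muscle genes, was called in both variants. It was at 63.1 and 59.1 CPM in GFP, 158 and 146 CPM in YAP6SA, and 142 and 92.9 CPM in YAP5SA. Its log2 fold change was 1.31 in YAP6SA OE CMs (standard error 0.17, FDR 0.0424) and 0.92 in YAP5SA OE CMs (0.17, FDR 0.0054), and it was the 1 list gene called in YAP6SA. The YAP6SA call was lost without any of the GFP and YAP6SA libraries, with FDR of up to 0.217 without GFP 1, and without the block (0.361), and the YAP5SA call was lost without GFP 1 (0.0551). *Hdac7*, a deacetylase that binds MEF2 proteins and represses their targets, rose from 101 and 99.7 CPM in GFP to 144 and 176 CPM in YAP5SA (0.67, 0.16, FDR 0.0156), which was lost without GFP 1, GFP 2 or YAP5SA 2, with FDR of up to 0.18. *Hopx*, a homeodomain protein that holds back SRF, was at 92.8 and 128 CPM in GFP, 133 and 142 CPM in YAP6SA, and 91.6 and 65.7 CPM in YAP5SA, and was lower in YAP5SA than in YAP6SA (-0.81, 0.21, FDR 0.0286, lost without either YAP6SA library or YAP5SA 2, with FDR of up to 0.19). *Hdac7* was higher in YAP5SA than in YAP6SA (0.55, FDR 0.0462), a call lost in every fit with a library left out but the fit without YAP5SA 1, with FDR of up to 0.53 without YAP6SA 2, and also without the block (0.0707) and in the 4 libraries compared. The E protein genes *Tcf3*, *Tcf4* and *Tcf12* and the GATA cofactor genes *Zfpm1* and *Zfpm2* were called in no comparison.

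Of 26 genes reported as targets of the members, all were tested. In YAP6SA OE CMs 0 were called, and the median log2 fold change was 0.10 beside 0.0018 over all genes. At an unadjusted p under 0.05, 5 of the 26 were higher, beside 514 of the 13323 genes. In YAP5SA OE CMs 4 of 26 were higher and 2 lower than in GFP, shares close to the 12.8% and 9.18% of all genes. The median of the targets was -0.33, beside -0.56 for the 6 CM markers, and 8 of the 26 were above GFP. *Nppa*, the atrial natriuretic peptide gene, rose from 12.7 and 9.70 CPM in GFP to 25.5 and 24.6 CPM in YAP5SA (log2 fold change 1.18, standard error 0.23, FDR 0.0074), and *Nppb* from 329 and 165 CPM to 518 and 868 CPM (1.51, 0.33, FDR 0.0116). *Bmp10*, a growth factor gene of trabecular and atrial CMs, rose from 12.8 and 7.74 CPM to 20.9 and 24.2 CPM (1.18, 0.27, FDR 0.0132). *Pln*, the inhibitor of the calcium pump of the sarcoplasmic reticulum, fell from 524 and 537 CPM to 316 and 206 CPM (-1.04, 0.21, FDR 0.0078), and *Ryr2*, its calcium release channel, fell by 0.81 (standard error 0.25, FDR 0.0455). Without GFP 2 all of these calls were lost, with FDR of 0.0763 for *Nppa*, 0.125 for *Nppb*, 0.185 for *Bmp10*, 0.0749 for *Pln* and 0.499 for *Ryr2*, and those of *Bmp10* and *Ryr2* were also lost without YAP5SA 2, that of *Ryr2* also without either YAP6SA library, without the block (0.0739) and in the 4 libraries compared.

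Between the variants, 2 of the 26 targets were higher and 3 lower in YAP5SA OE CMs, beside 9.0% and 5.68% of all genes. Their median log2 fold change was -0.43, beside -0.01 over all genes and -0.43 for the 6 CM markers. *Ryr2*, *Tnnt2* and *Myh6* are in both lists, and the part of the CM marker fall in the target values was not tested. At an unadjusted p under 0.05, 13 of the 26 were lower, beside 1928 of the 13323 genes. *Pln* was lower by -0.998 (FDR 0.0127) and *Nppa* higher by 0.96 (FDR 0.0235). *Ckm*, the muscle creatine kinase gene, was at 49.7 and 60.9 CPM in GFP, 102 and 87.0 CPM in YAP6SA, and 68.3 and 23.5 CPM in YAP5SA, and was lower in YAP5SA than in YAP6SA (-1.14, standard error 0.34, FDR 0.0489). *Ryr2* was lower by -0.84 (FDR 0.0496). All 4 calls were lost without YAP6SA 2, with FDR from 0.226 to 0.395, and all but that of *Pln* also without YAP6SA 1, without YAP5SA 2 and without the block. With DESeq2 the FDR of *Ckm* was 0.236.

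**Figure D5:**
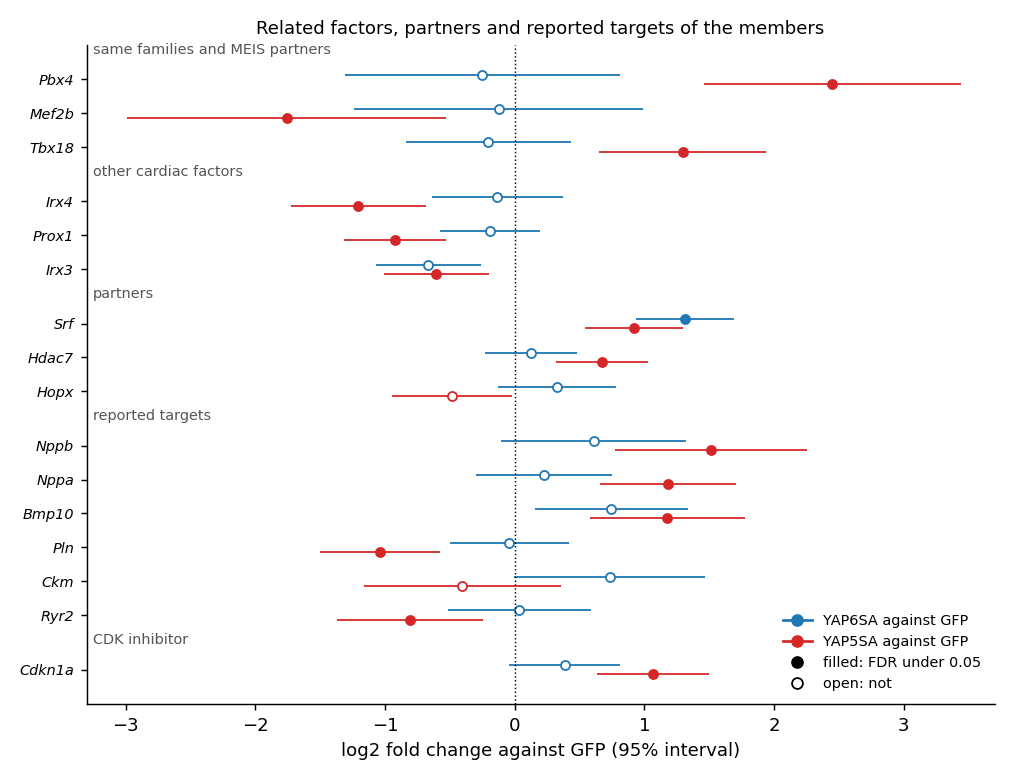
Log2 fold change against GFP with its 95% interval for the genes named here from the lists of related factors, partners, reported targets and cell cycle inhibitors, with YAP6SA in blue and YAP5SA in red. Filled points passed the FDR threshold, and in YAP6SA that holds for *Srf* only, at 1.31.

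Markers of other heart cells were set beside these values. Marker calls in YAP5SA against GFP stand beside 12.8% of all genes called higher and 9.18% called lower. Between the variants these shares were 9.0% and 5.68%. Fibroblast markers summed to 857 to 1363 CPM in GFP, 981 to 1771 CPM in YAP6SA and 903 to 1491 CPM in YAP5SA, with 0 of 8 called in any comparison, and endothelial markers to 464 to 594, 478 to 688 and 474 to 610 CPM, with 0 of 7 called. In both lists batch 1 was the higher in every group. Epicardial markers summed to 31.8 to 41.5 CPM in GFP, 32.1 to 58.0 CPM in YAP6SA and 127 to 189 CPM in YAP5SA. Of their 5 tested genes 2 rose in YAP5SA, *Wt1* from 13.7 and 13.5 CPM to 92.5 and 154 CPM (log2 fold change 3.17, standard error 0.30, FDR 0.00023), a call made whichever library was left out, and *Krt19* (2.21, 0.61, FDR 0.0292), lost without GFP 2 and without YAP5SA 2 (0.353). *Upk3b*, *Upk1b* and *Msln* were not called. Macrophage markers summed to 50.1 to 69.6 CPM in GFP, 62.9 to 85.4 CPM in YAP6SA and 70.8 to 110 CPM in YAP5SA, where *Lyz2* (1.43, 0.27, FDR 0.0061) and *C1qa* (0.96, 0.25, FDR 0.0228) rose, calls lost without GFP 2 (0.0858 and 0.116), that of *C1qa* also without GFP 1, without YAP5SA 2 and without the block. Mural markers summed to 457 to 532, 515 to 546 and 320 to 397 CPM, with *Myh11* higher (1.00, FDR 0.0274) and *Abcc9* lower (-0.81, FDR 0.0287) in YAP5SA than in GFP, both lost without GFP 2 (0.3 and 0.324) and without YAP5SA 2, and that of *Myh11* also without the block (0.186). Erythroid markers summed to 24.3 to 61.9 CPM and Schwann cell markers to 31.7 to 59.1 CPM over all libraries, with 0 called. Of the 6 CM markers only *Ryr2* was called, lower in YAP5SA than in either other group. Against GFP their median log2 fold change with YAP5SA was -0.56, beside -0.0031 over all genes, with 1 of 6 above GFP. At an unadjusted p under 0.05, 3 of the 6 were lower, beside 2261 of the 13323 genes. The part of this fall in the lower values of *Gata6*, *Nkx2-5* and *Mef2a* was not tested. The part of these markers in the values of *Tbx20* and *Meis1* was not tested.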

How the data were processed

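The authors deposited 1 table of raw read counts per Ensembl gene for the 6 libraries, from reads that were mapped with STAR to GRCm38 (mm10) under Ensembl 94. The libraries were non-directional, and the strand setting of the counting is not given in the sources used here. Rows for reads outside genes (9.43 to 9.84%), ambiguous reads (5.79 to 6.31%), multimapping reads (2.90 to 4.19%) and unmapped reads (3.03 to 3.63%) were left out. GENCODE M21 named 54495 of 54532 genes. Genes with a median log2 CPM over 1 in at least 1 group were kept, 13323 in all, and tested with edgeR 4.0.16 (R 4.3.3) by the quasi-likelihood test on TMM-scaled libraries, in 1 model of all 6 libraries with batch and group. Adjusted p-values are Benjamini-Hochberg values over all genes kept, with a threshold of 0.05. Standard errors come from the log2 fold change and the F statistic, and differences within a batch from log2 CPM with a prior count of 2. The test script was tested on simulated data.

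The labels give the replicate number as the batch, so same-numbered libraries were paired and the batch is the replicate block. Deviations from the group means correlated between groups at 0.368, 0.0985 and 0.175 over genes. Alternatives were DESeq2 1.42.0, DESeq2's size factors, limma-voom (limma 3.58.1), no filter, at least 10 counts in every library, no block, only the 4 libraries compared, each library left out, and the longest transcript as length.

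The members, the gene lists and the marker lists were chosen with earlier results of these data known. The text names all members, up to 4 called genes of each list and comparison with the largest change, genes that overlap a member or start within 5 kb of it on the other strand, and the 2 genes most like each called member. Some genes that fall under this rule are not reported here. Limits from a count of 0 cover counting error only.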

Additional observations from a re-analysis of the deposited data

How the results depend on the processing

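Of the 10 members, the number called in YAP6SA against GFP went from 0 to 1 (*Hand2*) without the filter on low counts, in the fit of only the 4 libraries compared with the replicate block, and with DESeq2, and ran from 0 to 1 when single libraries were left out. In YAP5SA against GFP it went from 1 to 3 (*Hand2*, *Meis1* and *Tbx20*) with at least 10 counts in every library and ran from 0 (without GFP 1 or GFP 2) to 3 (without YAP5SA 2). In YAP5SA against YAP6SA it went from 0 to 1 (*Meis1*) without the filter, with at least 10 counts in every library and with limma-voom, and ran from 0 to 1 with single libraries left out. Without the replicate block the numbers called stayed at 0, 1 and 0. Of 351 values of the members under the alternatives, 24 changed sign, none of them called. For *Mef2c* in YAP6SA against GFP the log2 fold change was 0.012 without the replicate block, 0.024 in the 4 libraries and 0.042 with limma-voom. With single libraries left out, log2 fold changes in YAP6SA against GFP ran from -0.045 to 0.29 for *Gata4*, from -0.24 to 0.099 for *Gata6*, from -0.0801 to 0.16 for *Nkx2-5*, from -0.11 to 0.28 for *Tbx5*, from -0.34 to 0.022 for *Mef2a*, from -0.33 to 0.36 for *Mef2c* and from -0.14 to 0.052 for *Meis1*. In YAP5SA against GFP they ran from -0.12 to 0.20 for *Gata4* and from -0.35 to 0.12 for *Tbx5*, and in YAP5SA against YAP6SA from -0.21 to 0.032 for *Gata4*, from -0.44 to 0.039 for *Tbx5*, from -0.075 to 0.32 for *Tbx20* and from -0.27 to 0.046 for *Hand2*. Of the 22 related genes, targets and markers that the naming rule took as called in YAP5SA against GFP, 18 were lost in at least 1 fit with a library left out and 5 without the block. Of the 15 taken as called between the variants, 9 were lost without the block, as was the 1 in YAP6SA against GFP. Most of these calls were also lost in fits with a library left out. Where a library was left out, the lone library of its group was assumed to vary like the others. The share of all genes called in such fits was not counted, so the members called in them are a description only. The cause of a lost call was not tested.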

Other observations

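*Nkx2-6*, the relative of *Nkx2-5* in the pharyngeal heart field, did not pass the filter on low counts and was chosen after its values were seen. It had 0 counts in both GFP libraries and both YAP6SA libraries, and 8 and 30 counts in the YAP5SA libraries. Its mean of 1.1 CPM in YAP5SA OE CMs was 6.25-fold the 0.176 CPM that 3 counts per library would give in GFP. It was 6.61-fold the 0.167 CPM that 3 counts per library would give in YAP6SA. These folds bound only the groups at 0 and leave out the spread between the 2 YAP5SA libraries. Since these values led to its choice, a test on the same values cannot support a difference, and none is given.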
